A study of Mus musculus with 18 samples.

Results

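The leukocyte integrins are the adhesion receptors with which white blood cells hold on to vessel walls, other cells and matrix. The genes described here are 10 integrin subunits chosen by name from the expression table, the alpha subunits Itgal, Itgam, Itgax, Itga4, Itgae and Itga2 and the beta subunits Itgb1, Itgb2, Itgb3 and Itgb7. They were chosen with earlier results of these data known. Each of the 10 names was found, out of 22708 genes in the table.

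Small-intestinal eosinophils of mice from 3 genotypes were purified and profiled by bulk RNA sequencing, with 6 samples each of wildtype (WT), Ahr knockout (Ahr-/-) and Ahrr knockout (Ahrr-/-) mice. Ahr encodes a ligand-activated transcription factor, and Ahrr its repressor, which is itself a target of AHR. Each genotype had 3 female (F1 to F3) and 3 male (M1 to M3) samples, and the labels give the strain of every mouse as C57/BL6. The cells were enriched with anti-CD11b beads and then sorted as CD11b+MHC-II-SiglecF+SSChi. No treatment is named, and the mice of the study were 6 to 14 weeks old, without an age per sample. Litter and cage differed between WT and Ahr-/- mice, so neither can be told apart from genotype in that comparison; for Ahrr-/- mice, which the study's list of mouse lines does not hold, neither is stated.

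Every integrin is a pair of an alpha and a beta subunit, and the pair decides what the cell binds. Itgb2 pairs with Itgal (LFA-1), Itgam (Mac-1, whose alpha chain is CD11b) and Itgax (CD11c) in receptors for ICAMs and complement fragments, while Itga4 pairs with Itgb1 or Itgb7 to bind VCAM-1 or the gut addressin MAdCAM-1, and Itgae pairs with Itgb7 to bind E-cadherin on epithelium. Eosinophils use beta2 and alpha4 integrins to leave the blood, and the gut is the organ in which they are most numerous at steady state.

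Total counts per sample ran from 3842977 to 8149200 in WT (median 6022410), from 6581818 to 10284124 in Ahr-/- (median 9647590) and from 8788867 to 12046933 in Ahrr-/- samples (median 10371556). Levels are given as the deposited log2 variance-stabilized value, on which a count of 0 reads 5.0, or as the normalized count that this value turns back into. On this log2 scale a difference between groups is smaller than the log2 ratio of counts where a gene has few counts.

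The targeted genes came first. Ahr itself had a lowest, median and highest level of 13.40, 13.76 and 14.40 in WT, 14.15, 14.55 and 14.67 in Ahr-/-, and 13.03, 13.51 and 14.42 in Ahrr-/- samples. Ahr RNA was thus not lower in the samples labelled Ahr-/-, of which 4 of 6 lay above every WT sample (difference 0.61, SE 0.19, adjusted p = 0.0557 from limma). For Ahrr the same 3 values were 9.79, 10.12 and 10.39 in WT, 5.0, 5.25 and 5.79 in Ahr-/-, and 9.95, 10.37 and 10.93 in Ahrr-/- samples. Ahrr RNA was therefore present in all samples labelled Ahrr-/-, with no lower mean than in WT (difference 0.28, SE 0.18, adjusted p = 0.683) and close to the lowest value in Ahr-/- samples (difference -4.83, SE 0.14, adjusted p = 4.95e-12, 6 of 6 below every WT sample). Which stretch of either gene is missing is not given in the sources used here, and a transcript can remain readable around a deletion, so neither label could be checked on its own gene. The AHR targets Cyp1b1 (difference -4.07, adjusted p = 1.93e-08) and Tiparp (difference -2.60, adjusted p = 1.56e-07) fell in all 6 Ahr-/- samples relative to WT. From here on, Ahr-/- and Ahrr-/- name the labels.

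The eosinophil label was checked against 11 eosinophil genes, all present in the table. Siglecf ran from 837 to 3113 normalized counts over the 18 samples, Ccr3 from 5286 to 15551, and Il5ra from 992 to 3206. Of the granule genes, Epx stayed between 3 and 24 normalized counts, Rnase2a was at 0 in every Ahr-/- sample and Ear6 at 0 in every Ahrr-/- sample. The summed list, led by Alox15, had a lowest, median and highest count of 24866, 35019 and 38211 in WT, 38503, 44609 and 49555 in Ahr-/-, and 14322, 32034 and 38775 in Ahrr-/- samples. Every Ahr-/- sum lay above every WT sum.

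Markers of other cells were also read. The 10 epithelial genes, led by the goblet cell mucin Muc2, summed to 6559, 9581 and 21870 in WT, 4771, 7419 and 8632 in Ahr-/-, and 6354, 21962 and 37402 in Ahrr-/- samples (lowest, median, highest). The 10 neutrophil genes, led by Retnlg, summed to 24246, 36170 and 49009 in WT, 56088, 84323 and 113776 in Ahr-/-, and 24445, 35615 and 45703 in Ahrr-/- samples. Retnlg made up nearly the whole neutrophil sum, and 4 of the 10 genes (Ly6g, Mpo, Elane and Camp) had a median normalized count that rounds to 0 in each genotype. Camp reached 101 in an Ahr-/- and 202 in an Ahrr-/- sample, and Ltf and Ngp had counts in every sample, up to 172 and 432. Medians in WT, Ahr-/- and Ahrr-/- samples were 2753, 2574 and 4450 for 14 macrophage and dendritic cell genes (led by Cd74), and 548, 286 and 3898 for the 6 of 9 B and plasma cell genes in the table (led by Jchain). They were 445, 163 and 916 for 8 platelet and megakaryocyte genes (led by Ppbp), and 130, 125 and 490 for 9 fibroblast and endothelial genes (led by Col3a1). The lists with the lowest sums were T cells (9 of 12 genes, led by Cd4, medians 63, 56 and 111), NK cells and innate lymphocytes (9 genes, medians 90, 46 and 85, Ncr1 at 0 in every knockout sample) and mast cells and basophils (10 genes, led by Kit, medians 84, 113 and 193). Bulk RNA cannot tell fewer cells of a type from less RNA per cell.

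Several libraries stood apart. Ahrr-/- M3 had the lowest level of all 18 samples for 7 of the 10 integrin genes, with a median deviation of -1.04 from the median of all samples on the log2 scale and the highest epithelial sum (37402). Ahrr-/- F3 (deviation -0.51, epithelial sum 26969), Ahrr-/- M1 (deviation -0.20, epithelial sum 25572) and WT F1 (deviation -0.30, epithelial sum 21870) followed in epithelial sum. At the other end, Ahr-/- F2 had the highest level for 5 of the 10 genes, with a deviation of 0.36 and the lowest epithelial sum (4771). WT F3 and Ahr-/- F3 had counts in 20244 and 19694 genes, against 15146 to 17236 in the other libraries. The 4 libraries with the highest epithelial sums are called epithelial-rich below.

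**Figure D1:**
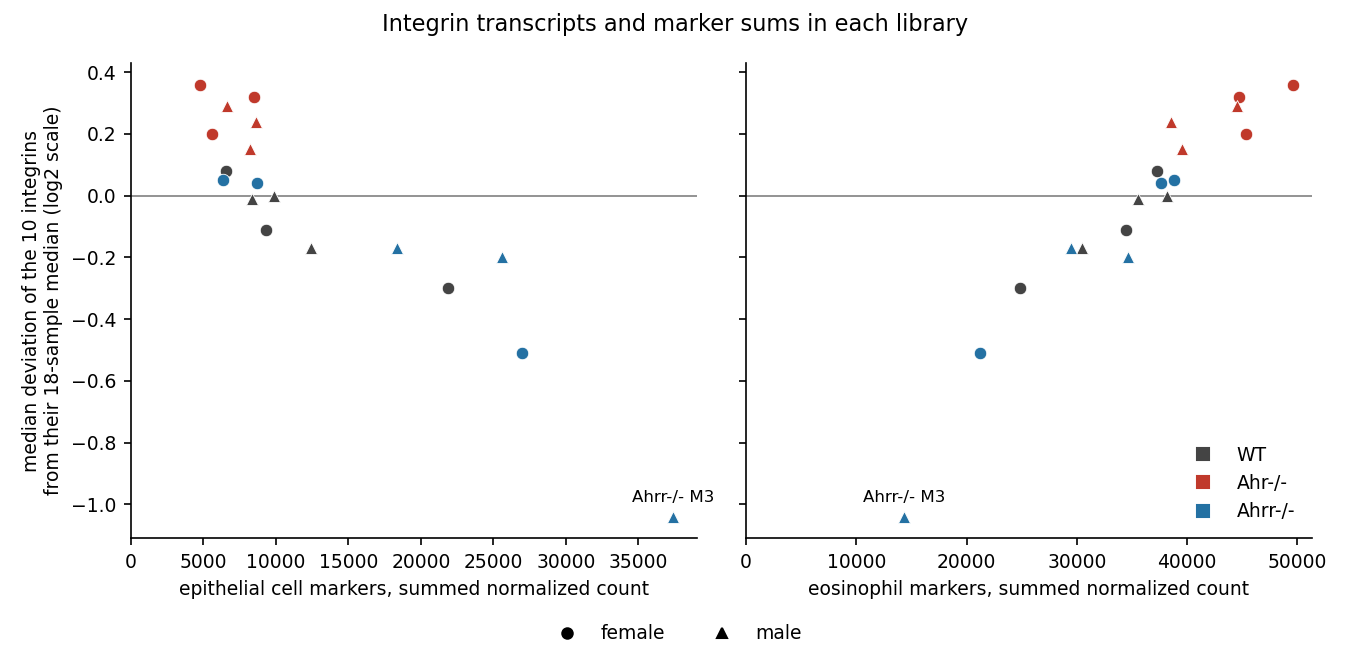
Each point is a sample, coloured by genotype and shaped by sex. The median deviation of the 10 integrin genes from their median over all samples (log2) is set against the summed normalized count of epithelial (left) and eosinophil markers (right); Ahrr-/- M3 lies lowest, at -1.04 with sums of 37402 and 14322, and Ahr-/- F2 highest, at 0.36 with 4771 and 49555.

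The genes lie on several chromosomes of GRCm38, and the alpha chains that pair with Itgb2 lie together. Itgal (gene ID 16408, chr7:127296260-127335138), Itgam (16409, chr7:128062640-128118491) and Itgax (16411, chr7:128129547-128150657) share chromosome 7, with 11.1 kb between Itgam and Itgax and 727.5 kb between Itgal and Itgam. Itgae (16407, chr11:73090583-73147446) and Itgb3 (16416, chr11:104608000-104670476) share chromosome 11. The others are Itga4 (16401, chr2:79255426-79333123), Itga2 (16398, chr13:114833081-114932100, minus strand), Itgb1 (16412, chr8:128685654-128733200), Itgb2 (16414, chr10:77530252-77565708) and Itgb7 (16421, chr15:102215995-102231944, minus strand). Itga4 overlaps Cerkl, and Itgae overlaps Haspin, each on the opposite strand, and the library is not stated to keep strand, so reads of such stretches cannot be told apart. Itgam overlaps the gene model Gm49368 on the same strand, which has no values in the table and could not be read separately. Cerkl had a median of 35 normalized counts over all samples, and Haspin a median of 51; in WT samples Haspin had 66 and Itgae 18.

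Promoter sequences (RefSeq, GRCm38.p6, 250 bases before to 50 after the gene start) were found for 6 of the 10 genes, and none for Itgal, Itgae, Itgb2 and Itgb3. They were searched on both strands for GCGTG, the core to which AHR binds with its partner ARNT, for TNGCGTG, a longer form that contains GCGTG, and for GAGGAA, the core bound by the myeloid factor PU.1. GCGTG was present once in each of the promoters of Itgax, Itga4 and Itga2, and occurs in 32.4% of all 32851 promoters of this length. TNGCGTG was in none of the 6, against 5.07% of all promoters. GAGGAA was found in Itgam (3 matches), Itgb1 and Itgb7, and in 28.3% of all promoters. The sequences of the 3 genes that rose in Ahr-/- samples and had an entry are shown, 5′ to 3′ on the gene's strand, with matches in capitals (GCGTG, or CACGC on the opposite strand, in Itgax and Itga2; GAGGAA in Itgb1). A match describes the sequence and does not show that a factor binds there. The stretches are chr7:128129300-128129599 (plus strand) for Itgax, chr13:114932051-114932350 (minus strand) for Itga2 and chr8:128685404-128685703 (plus strand) for Itgb1.
Itgax: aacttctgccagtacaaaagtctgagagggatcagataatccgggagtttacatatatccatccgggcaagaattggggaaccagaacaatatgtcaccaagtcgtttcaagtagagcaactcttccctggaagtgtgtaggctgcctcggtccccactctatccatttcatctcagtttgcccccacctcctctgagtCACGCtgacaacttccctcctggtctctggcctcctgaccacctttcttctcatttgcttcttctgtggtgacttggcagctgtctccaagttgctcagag
Itga2: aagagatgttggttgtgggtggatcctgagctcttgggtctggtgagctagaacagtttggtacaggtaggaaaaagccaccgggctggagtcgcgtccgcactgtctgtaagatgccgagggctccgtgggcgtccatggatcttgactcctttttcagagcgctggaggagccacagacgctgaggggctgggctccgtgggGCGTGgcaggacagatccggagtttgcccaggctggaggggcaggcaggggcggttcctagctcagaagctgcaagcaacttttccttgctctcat
Itgb1: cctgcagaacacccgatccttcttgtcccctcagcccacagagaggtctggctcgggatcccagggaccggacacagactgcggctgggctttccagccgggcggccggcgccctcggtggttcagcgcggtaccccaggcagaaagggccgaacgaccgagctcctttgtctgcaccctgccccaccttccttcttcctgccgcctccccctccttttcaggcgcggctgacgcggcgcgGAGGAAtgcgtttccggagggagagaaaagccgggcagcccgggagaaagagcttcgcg

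Levels were compared between genes as normalized counts per kb of exon. The length used is that of all annotated exons of a gene joined, 13.98 kb for Itga4 and 2.77 to 7.13 kb for the others. The order depends on it. Before this division the WT medians were 17200 for Itga4, 17162 for Itgam and 6862 for Itgax. In WT samples Itgam led with a median of 3416 per kb, followed by Itgax (1429), Itga4 (1231), Itgb2 (1188), Itgal (371), Itgb1 (304), Itgb7 (190), Itgb3 (153), Itga2 (60.3) and Itgae (3.95). The cells thus carried RNA of both chains of LFA-1, of Mac-1 and of the alpha4 receptors, while Itgae, a marker of intraepithelial lymphocytes, came last. Neighbours whose WT ranges overlapped were Itgax and Itga4, Itga4 and Itgb2, and Itgb7 and Itgb3. In Ahr-/- samples the order was the same except that Itgb3 (236) stood before Itgb7 (176), and ranges overlapped for Itgax and Itga4, Itga4 and Itgb2, Itgb3 and Itgb7, and Itgb7 and Itga2. Itgal had a median of 873 there. In Ahrr-/- samples Itgb2 (1067) stood before Itga4 (1041), and the only neighbours whose ranges did not overlap were Itga4 and Itgal, Itgb1 and Itgb7, and Itga2 and Itgae. The protein of Itgam, the most abundant of the 10 per kb, was also the antigen of the bead enrichment and of the sort gate.

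**Figure D2:**
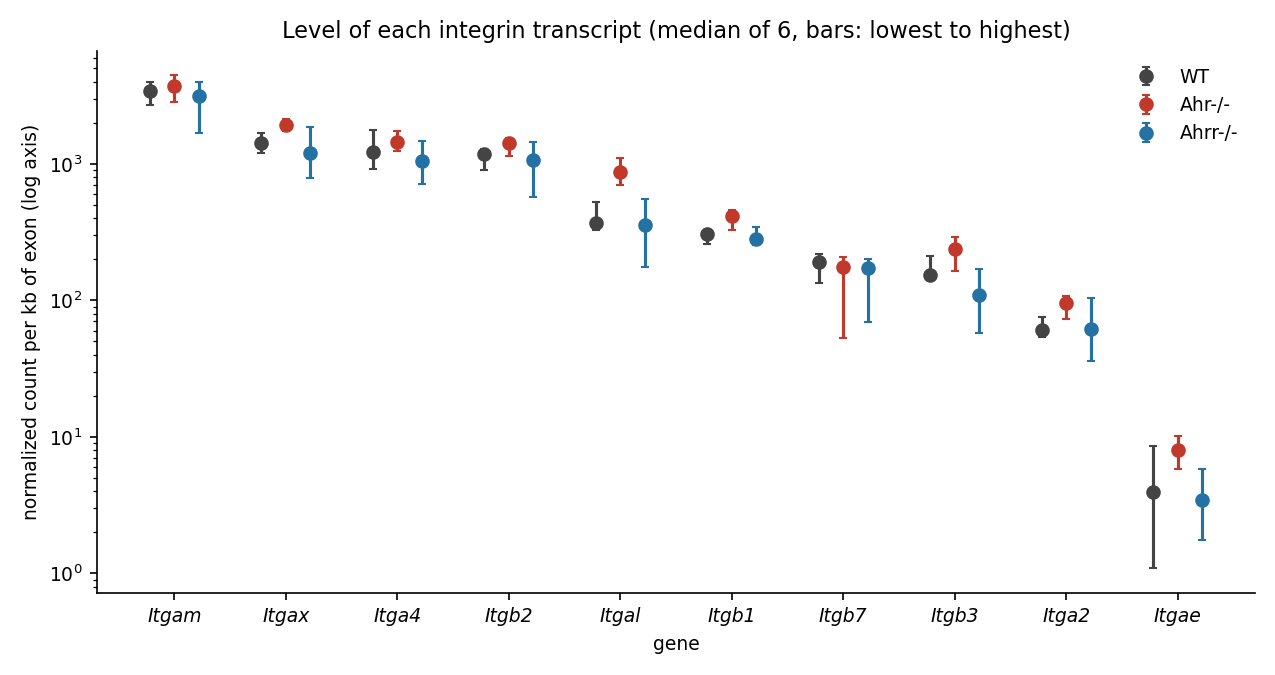
Normalized count per kb of exon on a log axis for each integrin gene, as the median of 6 samples of each genotype with bars from the lowest to the highest sample. Median levels in WT run from 3416 for Itgam down to 3.95 for Itgae, and Itgal is higher in Ahr-/- samples (median 873) than in WT (371).

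The comparison of Ahr-/- with WT samples asks which integrin transcripts differ when AHR is lost. Itgal, the alpha chain of LFA-1, had the largest difference of the 10 on the deposited scale: its mean normalized count in Ahr-/- samples was 2.22 times that in WT samples. The collagen receptor chain Itga2 (1.48 times), the vitronectin and fibrinogen receptor chain Itgb3 (1.42), the common beta chain Itgb1 (1.37) and Itgax (1.33) rose as well. No integrin gene of the 10 fell by the test, and Itgb7 alone had a lower mean in Ahr-/- samples. Its partners Itga4 and Itgae, and Itgb2 and Itgam, did not pass the test.

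By limma 5 of the 10 genes passed an adjusted p of 0.05, all of them higher in Ahr-/- samples, where 8.84% of 11346 tested genes passed in either direction and 5.16% were higher. The groups did not overlap, with Ahr-/- above WT, for 3 of the 10 (Itgal, Itgax and Itgb1), against 2.62% of all tested genes. The median difference of the 10 was 0.42, and that of all tested genes -0.0041. Of the 10, 9 had a higher mean in Ahr-/- samples, Itgam among them by 0.12 with its sign turned to -0.03 by quantile normalization. Itgae lay at the edge of the minimum mean in WT and Ahrr-/- samples, was not tested where those were fitted together, and entered this fit through its Ahr-/- samples, so these counts are a description. The number of genes called fell from 5 to 3 without WT M3, Ahr-/- F1, Ahr-/- F2 or Ahr-/- M3, and to 1 (Itgal) without WT F3 and Ahr-/- F3 together. Without WT F1, WT F3, WT M2, Ahr-/- F3 or Ahr-/- M1 the set of called genes changed as well, with Itgax lost each time.

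**Figure D3:**
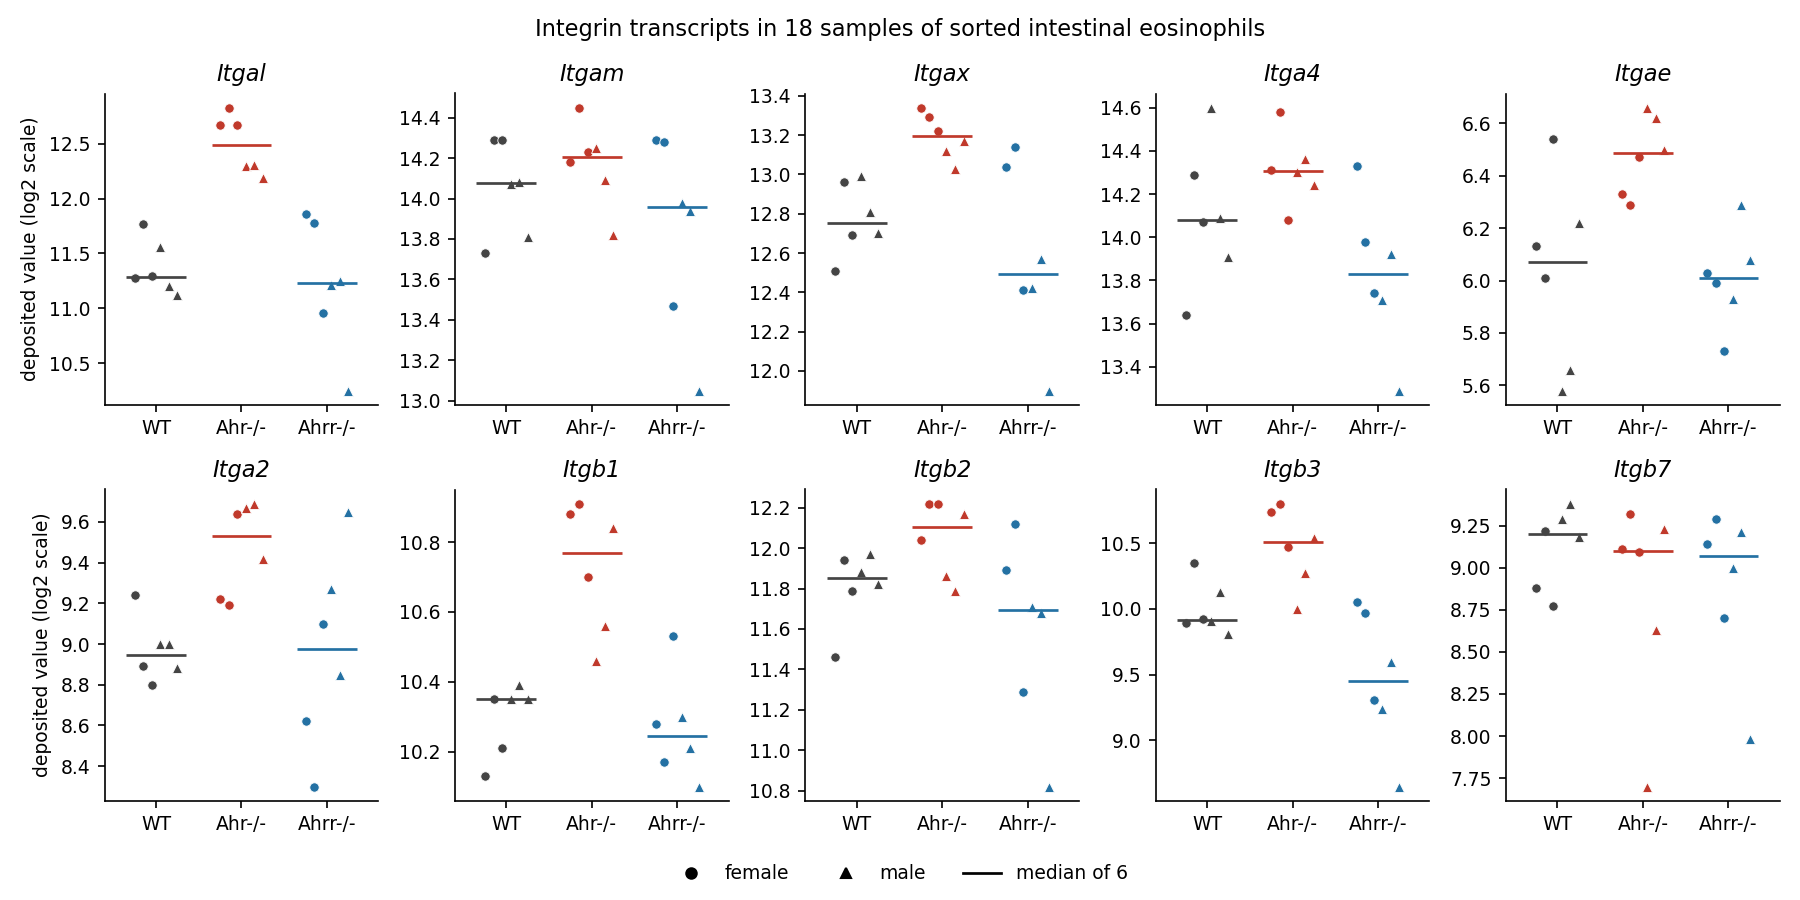
Deposited log2 level of the 10 integrin genes in each sample, one panel per gene, with samples grouped as WT, Ahr-/- and Ahrr-/- symbols by sex and lines at the group medians. Itgal in Ahr-/- samples (12.19 to 12.83) lies above all WT (11.12 to 11.77) and Ahrr-/- samples (10.25 to 11.86).

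Among the partners of Itgb2, Itgal had a lowest, median and highest level of 11.12, 11.29 and 11.77 in WT, 12.19, 12.49 and 12.83 in Ahr-/-, and 10.25, 11.23 and 11.86 in Ahrr-/- samples. All 6 Ahr-/- samples lay above all 12 others, F2 highest and M3 lowest among them. The difference from WT was 1.13 (SE 0.12, adjusted p = 1.52e-05) and passed under every alternative tried, at 1.07 to 1.20. Itgax, found on intestinal eosinophils as well as on dendritic cells, had levels of 12.51, 12.76 and 12.99 in WT, 13.03, 13.19 and 13.34 in Ahr-/-, and 11.90, 12.50 and 13.14 in Ahrr-/- samples. Ahr-/- samples did not overlap with WT, but by a narrow margin (difference 0.42, SE 0.12, adjusted p = 0.0376, higher in 6 of 6). The call for Itgax was lost without WT F1 (adjusted p = 0.0634), WT F3 (0.0899), WT M2 (0.0583), WT M3 (0.0726), Ahr-/- F1 (0.104), Ahr-/- F2 (0.0861), Ahr-/- F3 (0.0679), Ahr-/- M1 (0.0582) or Ahr-/- M3 (0.0755). It was also lost with median centring (0.0545), a replicate block (0.0621), no minimum mean (0.0877) and all 18 samples in 1 fit (0.186), without WT F3 and Ahr-/- F3 together (0.132), and without the epithelial-rich libraries, of which WT F1 is the only 1 in this comparison (0.0634).

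Itgam had levels of 13.73, 14.07 and 14.29 in WT, 13.82, 14.20 and 14.45 in Ahr-/-, and 13.05, 13.96 and 14.29 in Ahrr-/- samples. The 3 genotypes overlapped, and the Ahr-/- minus WT difference of 0.12 (SE 0.15, adjusted p = 0.655) turned to -0.03 with quantile normalization. Itgb2, the beta chain that all 3 alpha chains need to reach the surface, had levels of 11.46, 11.85 and 11.97 in WT, 11.79, 12.10 and 12.22 in Ahr-/-, and 10.82, 11.70 and 12.12 in Ahrr-/- samples. Of the Ahr-/- samples 4 of 6 lay above every WT sample, and WT F1 lay well below the other WT samples (difference 0.24, SE 0.12, adjusted p = 0.245).

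Because LFA-1 needs both chains, Itgal was also set against Itgb2 within each sample, as the difference of the log2 levels. The lowest, median and highest Itgal minus Itgb2 values were -0.78, -0.41 and -0.17 in WT, 0.03, 0.49 and 0.64 in Ahr-/-, and -0.57, -0.39 and -0.03 in Ahrr-/- samples. Every Ahr-/- sample thus lay above every WT and Ahrr-/- sample, with Ahr-/- M3 closest to them. The means of Ahr-/- and WT differed by 0.89 (exact two-sided permutation test, p = 0.002165, the smallest that 6 samples a group can give; 0.0227 after adjustment over 21 tests of 7 partner pairs in 3 comparisons). For Itgax minus Itgb2 the difference was 0.18 (exact p = 0.03896, adjusted 0.273); its exact p rose without WT F3 (0.07143), WT M2 (0.07359), WT M3 (0.07359), Ahr-/- F1 (0.07143), Ahr-/- M1 (0.06926) or Ahr-/- M2 (0.06926). The other 5 pairs had an exact p above 0.05 in this comparison, among them Itgae minus Itgb7 (difference 0.73, exact p = 0.08009; 0.03030 without WT F3) and Itga4 minus Itgb7 (difference 0.49, exact p = 0.09307).

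**Figure D4:**
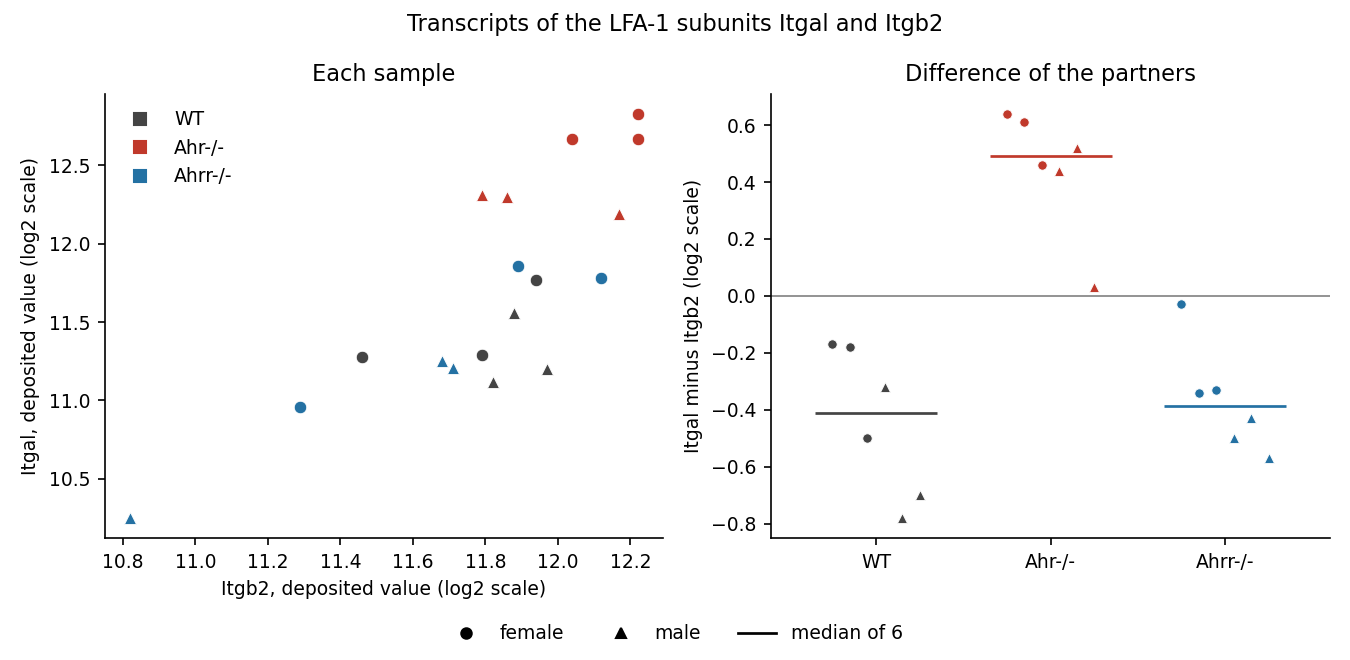
Left, log2 level of Itgal against that of Itgb2, one point per sample, coloured by genotype and shaped by sex. Right, Itgal minus Itgb2 (log2) per sample with lines at the group medians; Ahr-/- samples run from 0.03 to 0.64, WT samples from -0.78 to -0.17 and Ahrr-/- samples from -0.57 to -0.03.

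Of the gut-homing group, Itga4 had levels of 13.64, 14.08 and 14.60 in WT, 14.08, 14.31 and 14.58 in Ahr-/-, and 13.29, 13.83 and 14.33 in Ahrr-/- samples. All Ahr-/- samples lay inside the WT range, and the difference of 0.21 (SE 0.17, adjusted p = 0.475) did not pass. Itgb7, the chain that directs alpha4 to MAdCAM-1, had levels of 8.77, 9.20 and 9.38 in WT, 7.70, 9.10 and 9.32 in Ahr-/-, and 7.98, 9.07 and 9.29 in Ahrr-/- samples. A single Ahr-/- library, M1, lay far below, and the difference of -0.27 (SE 0.22, adjusted p = 0.495) moved to -0.04 without it. Itgae was low throughout, with 5, 18 and 39 normalized counts in WT, 27, 36 and 47 in Ahr-/-, and 8, 16 and 27 in Ahrr-/- samples. Its mean count was 1.98 times higher in Ahr-/- than in WT samples, with overlap (log2 difference 0.45, SE 0.16, adjusted p = 0.0891; 0.0349 without WT F3, the sample with the highest WT level, and 0.0494 with quantile normalization).

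Of the matrix receptors, Itga2, which pairs with Itgb1 to bind collagen, had levels of 8.80, 8.95 and 9.24 in WT, 9.19, 9.53 and 9.69 in Ahr-/-, and 8.30, 8.98 and 9.65 in Ahrr-/- samples. Here 4 of 6 Ahr-/- samples lay above every WT sample and all 6 above the WT median (difference 0.50, SE 0.11, adjusted p = 0.0111; 0.0638 without WT F3 and Ahr-/- F3, 0.0813 with all 18 samples in 1 fit). Itgb1 had levels of 10.13, 10.35 and 10.39 in WT, 10.46, 10.77 and 10.91 in Ahr-/-, and 10.10, 10.25 and 10.53 in Ahrr-/- samples. The Ahr-/- and WT samples did not overlap (difference 0.43, SE 0.10, adjusted p = 0.0152, higher in 6 of 6; 0.0597 without WT F3 and Ahr-/- F3). Itga2 minus Itgb1 within samples differed by 0.08 between the groups (exact permutation p = 0.6537).

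Itgb3, which forms the vitronectin receptor with Itgav and the fibrinogen receptor of platelets with Itga2b, had levels of 9.81, 9.92 and 10.35 in WT, 10, 10.51 and 10.80 in Ahr-/-, and 8.65, 9.45 and 10.05 in Ahrr-/- samples. Ahr-/- samples lay highest and Ahrr-/- samples lowest, with overlap between neighbours. Compared with WT, 4 of 6 Ahr-/- samples lay above the whole range (difference 0.47, SE 0.12, adjusted p = 0.0275). The call for Itgb3 was lost without WT F3 (0.0711), WT M3 (0.0568), Ahr-/- F1 (0.0774), Ahr-/- F2 (0.0733) or Ahr-/- M3 (0.0724), as well as with no minimum mean (0.0540), with all 18 samples in 1 fit (0.133) and without WT F3 and Ahr-/- F3 together (0.0825).

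**Figure D5:**
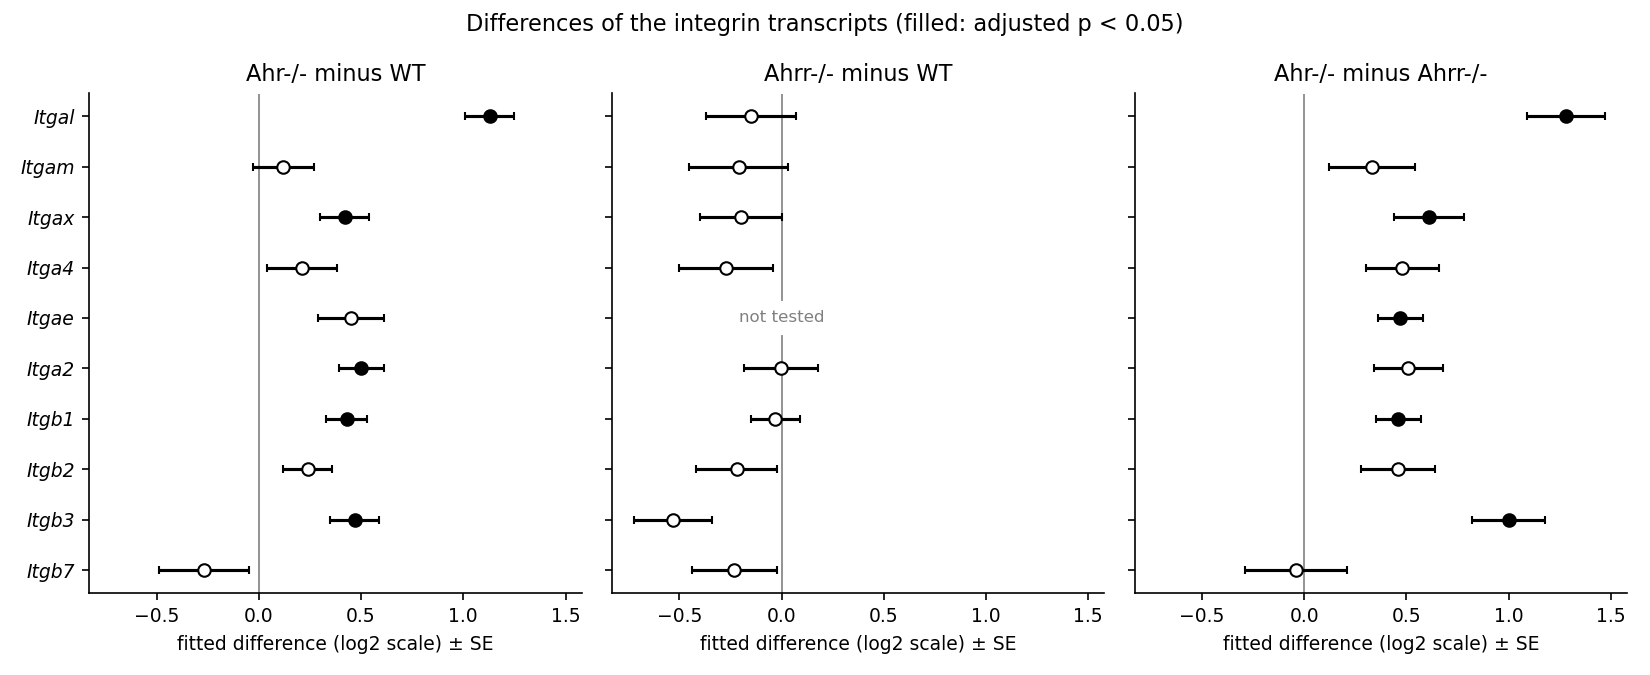
Fitted log2 difference of each integrin gene in Ahr-/- minus WT, Ahrr-/- minus WT and Ahr-/- minus Ahrr-/- samples, with bars of 1 SE; filled points passed an adjusted p of 0.05. Differences of Ahr-/- minus WT run from -0.27 (Itgb7) to 1.13 (Itgal), and with quantile normalization Itgam in Ahr-/- minus WT, Itga2 and Itgb1 in Ahrr-/- minus WT and Itgb7 in Ahr-/- minus Ahrr-/- change sign.

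Of 18 other integrin subunits 11 could be tested, 3 of the 11 had a higher mean in Ahr-/- samples, none was called higher, and the epithelial chain Itgb6 fell (difference -0.51, SE 0.15, adjusted p = 0.0409, 5 of 6 Ahr-/- samples below every WT sample). That call was lost without WT F1, F3, M1 or M2 or without Ahr-/- F1, F2, F3 or M3 (0.0558 to 0.108), with no minimum mean (0.103), with all 18 samples in 1 fit (0.152) and without WT F3 and Ahr-/- F3 together (0.124). The median difference of the 11 was -0.20.

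Some of the genes that switch integrins on or tie them to actin rose. Of 34 tested activators and adaptors 4 rose, with a median difference of 0.0013 for the list. Vcl (vinculin, which links talin to actin; difference 0.61, SE 0.11, adjusted p = 0.00192), Parvg (gamma-parvin, an adaptor of blood cells; 0.61, SE 0.12, 0.00336) and Fermt3 (kindlin-3, an activator of integrins in blood cells; 0.56, SE 0.11, 0.00432) rose, each above WT in 6 of 6 samples. The other gene that rose, named after its values were seen, was Rassf5, the RAP1 effector that activates LFA-1. Tln1 (talin), which opens integrins from inside the cell, differed by 0.20 (adjusted p = 0.270). With all 18 samples in 1 fit, Parvg (0.0719) and Fermt3 (0.0595) were no longer called.

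Ligands were mostly low in these cells, and 15 of 32 could be tested. Emilin1, a matrix ligand of alpha4 beta1, rose (difference 0.72, SE 0.11, adjusted p = 6.70e-04, 6 of 6 samples above every WT sample), and the median difference of the list was -0.03. Emilin1 had low counts, 6 to 15 normalized counts in WT and 30 to 50 in Ahr-/- samples. Its WT mean of 5.82 lay under the minimum mean, which it met through its Ahr-/- samples (6.54). Its place among the tested genes thus rests on the group where it is high. It was called in all 22 alternatives that tested it. Of the ligands of LFA-1, Icam1 differed by -0.05 (adjusted p = 0.912) and Icam2 by 0.37 (0.10). Vcam1, the ligand of alpha4 beta1, differed by 0.40 (0.0775), the E-cadherin gene Cdh1 by -0.55 (0.282), and Madcam1 and Icam4 were too low to be tested. For ligands or partners of other subunits, the differences were -0.26 for Fn1 (0.376), 0.28 for Thbs1 (0.703), 0.24 for Tgfb1 (0.237) and 0.11 for Cd9 (0.726).

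Of 17 membrane proteins that associate with integrins 3 rose and 1 fell, with a median difference of 0.12. Cd47, the integrin-associated protein, rose by 0.65 (SE 0.10, adjusted p = 5.49e-04) in 6 of 6 samples. The tetraspanins Cd37 (0.63, SE 0.12, 0.00394) and Tspan32 (0.54, SE 0.12, 0.00736; 0.0810 with all 18 samples in 1 fit) rose with some overlap. Tspan2, another tetraspanin, fell by 1.11 in 6 of 6 samples (SE 0.10, adjusted p = 3.27e-06).

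Among 14 tested adhesion receptors outside the integrin family, 2 rose and 4 fell, with a median difference of -0.03. Cd34, a sialomucin of progenitors and of eosinophils in tissue, had the largest difference in this list (2.40, SE 0.16, adjusted p = 9.43e-08, 6 of 6 samples above every WT sample). The sialic acid receptor Cd33 rose by 0.46 (SE 0.13, adjusted p = 0.0354), a call that was lost without WT F1, F3, M2 or M3 or without Ahr-/- F1, F2, F3, M1 or M3 (0.0501 to 0.0921), with no minimum mean (0.0716), with all 18 samples in 1 fit (0.116) and without WT F3 and Ahr-/- F3 together (0.112). Ceacam1 (-1.11, SE 0.24, 0.00771; 0.0732 with all 18 samples in 1 fit), Cd84 (-1.07, SE 0.21, 0.00342) and Pecam1 (-0.63, SE 0.10, 0.00116) fell. Mcam fell as well (-0.46, 0.0302; 0.0526 to 0.0715 without WT M1 or M3 or Ahr-/- F1, F2, M1 or M2, 0.0788 with no minimum mean and 0.0518 with a replicate block).

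Markers of cell type moved along with the integrin genes in this comparison. All 5 tested eosinophil genes had a higher mean in Ahr-/- samples, with a median difference of 0.37, against 0.42 for the 10 integrin genes. Siglecf among them differed by 0.37 (adjusted p = 0.0529 from limma), with 6 of 6 Ahr-/- samples above every WT sample. Of 5 tested eosinophil genes the granule protein gene Prg2 (difference 2.30, adjusted p = 3.47e-07) and the lipoxygenase Alox15 (0.58, 0.0230) rose; the latter was lost without WT M3 or Ahr-/- F1, F2, F3 or M3 (0.0507 to 0.0589), with no minimum mean (0.0716), with all 18 samples in 1 fit (0.157) and without WT F3 and Ahr-/- F3 together (0.0782). Of 6 tested neutrophil genes Retnlg (1.21, 0.00453) and Cxcr2 (0.65, 0.0198) rose. Of 11 tested macrophage and dendritic cell genes Csf1r rose (0.49, 0.00693). Of 3 tested platelet genes Ppbp fell (-2.83, 1.10e-06), and of 10 epithelial genes Muc2 fell (-1.12, 0.00174; 0.201 with all 18 samples in 1 fit). In the T cell, NK cell, mast cell, B cell and fibroblast lists limma called 0 of 1, 2, 1, 3 and 3 tested genes, with 1 B cell gene at an unadjusted p under 0.05, and voom called 0 with 0 at that p. The part of these cells in the integrin differences was not tested.

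Ahr-/- and Ahrr-/- samples were then compared, to set the label for loss of the receptor against that for loss of its repressor. Ahr-/- samples carried more Itgal RNA (2.34 times the mean normalized count in Ahrr-/- samples), more Itgae (2.23), more Itgb3 (2.02), more Itgax (1.48) and more Itgb1 (1.40). The ratio of Itgae rests on low counts, with medians of 36 in Ahr-/- and 16 in Ahrr-/- samples. None of the 10 fell by the test, and Itgb7 differed by -0.04, with its sign turned by median centring (0.02) and by quantile normalization (0.01), and without Ahr-/- M1 (0.16), Ahrr-/- M1 (0.04) or Ahrr-/- M2 (0.09). This comparison uses the same Ahr-/- samples as the one with WT, so the 2 are not independent.

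By limma 5 of the 10 genes passed, all higher in Ahr-/- samples, against 14.9% of 11474 tested genes in either direction and 6.84% higher. Itgal alone did not overlap between the groups, where 3.01% of tested genes had every Ahr-/- sample above every Ahrr-/- sample. The median difference was 0.48 for the 10 genes and 0.0026 for all tested genes. The number called fell to 3 without Ahr-/- M3, and it includes Itgae, which met the minimum mean here through its Ahr-/- samples, so these counts too are a description.

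For Itgal the difference was 1.28 (SE 0.19, adjusted p = 7.43e-04), with all 6 Ahr-/- samples above all Ahrr-/- samples, and it passed under every alternative tried. Itgal minus Itgb2 within samples was also higher in Ahr-/- samples, by 0.81 (exact permutation p = 0.002165, 0.0227 adjusted over the 21 tests). Itgb3 differed by 1.0 (SE 0.18, adjusted p = 0.00242), with 5 of 6 Ahr-/- samples above the Ahrr-/- range, and likewise passed under every alternative. Both differences remained without the 4 libraries with the highest epithelial sums, where the lowest values were reached: 0.95 for Itgal and 0.67 for Itgb3.

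Itgae, which met the minimum mean through its Ahr-/- samples, differed by 0.47 (SE 0.11, adjusted p = 0.0150), with 5 of 6 Ahr-/- samples above the Ahrr-/- range. Its Ahrr-/- mean of 6.01 rested on 8 to 27 normalized counts. With no minimum mean the adjusted p was 0.0348, and without the 4 epithelial-rich libraries it was 0.164. For Itgb1 the difference was 0.46 (SE 0.11, adjusted p = 0.0177, 5 of 6 above the range; 0.0507 without Ahr-/- M3). Itgax differed by 0.61 (SE 0.17, adjusted p = 0.0291, 4 of 6 above the range) and by 0.32 (0.186) without the 4 epithelial-rich libraries. Its call was also lost without Ahr-/- F1 (0.0590), F2 (0.0529), M1 (0.0706), M2 (0.0621) or M3 (0.0750), or without Ahrr-/- F3 (0.0700) or M3 (0.0593), with no minimum mean (0.0586) and with no covariate (0.0646).

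Itga2 lay just past the threshold, at 0.51 (SE 0.17, adjusted p = 0.0535), and passed without Ahrr-/- F3 (0.0439), without Ahrr-/- M3 (0.0293) and without the 4 epithelial-rich libraries (0.83, 0.00191), and with median centring (0.0247), a replicate block (0.0407) and all 18 samples in 1 fit (0.0411). Itga4 differed by 0.48 (SE 0.18, adjusted p = 0.0843; 0.0343 without Ahrr-/- F1). For Itgb2 the difference was 0.46 (SE 0.18, adjusted p = 0.0920; 0.0488 without Ahrr-/- F2), and for Itgam 0.33 (SE 0.21, 0.295). Of the partner pairs, Itga4 minus Itgb7 differed by 0.52 (exact permutation p = 0.06926) and passed an unadjusted p of 0.05 without Ahr-/- F3 (0.04329), Ahr-/- M3 (0.04545) or Ahrr-/- M3 (0.04329). Itgae minus Itgb7 differed by 0.51 (exact p = 0.1840; 0.02814 without Ahrr-/- M3).

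Of 12 tested other integrin subunits 3 fell, namely Itgb4 (-0.83, adjusted p = 0.0184) and Itga6 (-1.0, 0.0333), which together anchor epithelium to its basement membrane, and Itgb6 (-0.63, 0.0417). Without the 4 epithelial-rich libraries none of the 3 was called (Itgb4 -0.49, 0.111; Itga6 -0.52, 0.116; Itgb6 -0.30, 0.326). Itga6 was not called without Ahr-/- F1, F2, M1, M2 or M3 or Ahrr-/- F3 or M3 (0.0507 to 0.0789), nor Itgb6 without any of the 6 Ahr-/- libraries or Ahrr-/- F3, M1 or M3 (0.0550 to 0.0985). With no covariate Itga6 (0.0774) and Itgb6 (0.0697) were not called, nor with no minimum mean (0.0513 and 0.0734), nor Itgb6 without Ahr-/- F3, the only 1 of the 2 gene-rich libraries in this comparison (0.0550). The median of the list was -0.39.

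Of 34 tested activators and adaptors 5 rose (median of the list 0.15). Vcl (0.88, SE 0.17, adjusted p = 0.00386), Fermt3 (0.70, SE 0.18, 0.0208) and Parvg (0.69, SE 0.20, 0.0324) rose; Rassf5 and Rasgrp2, an activator of RAP1, were the others and were named after their values were seen. The epithelial kindlin Fermt1 (-0.99, 0.0227) and the actin crosslinker Actn4 (-0.44, 0.0475) fell. Fermt3 was not called without Ahr-/- F2, M1 or M3 (0.0502 to 0.0550), Fermt1 without Ahr-/- M3 or Ahrr-/- M3 (0.0564 to 0.0622), and Parvg without Ahr-/- F1, F2, M1, M2 or M3 or Ahrr-/- F3 or M3 (0.0502 to 0.0846). Actn4 was not called without Ahr-/- F1, F2, M1, M2 or M3 or Ahrr-/- F3, M1, M2 or M3 (0.0506 to 0.108). Without the 4 epithelial-rich libraries Fermt3 (0.41, 0.0796), Parvg (0.40, 0.123), Fermt1 (-0.46, 0.242) and Actn4 (-0.27, 0.293) were nearer 0 and not called. With no covariate Parvg (0.0536), Fermt1 (0.0777) and Actn4 (0.0616) were not called. Actn4 was also lost with no minimum mean (0.0731), median centring (0.0696), quantile normalization (0.0579), voom (0.0501) and all 18 samples in 1 fit (0.0629).

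Of 15 tested ligands 2 rose and 3 fell (median -0.08). Icam2 (0.51, adjusted p = 0.0207; 0.0514 to 0.0545 without Ahr-/- F1, F2 or M1) and Emilin1 (0.50, 0.0207; 0.0531 without Ahr-/- M3) rose. Cdh1 (-1.02, 0.0364), the junction protein gene F11r (-0.94, 0.0386) and Fn1 (-0.85, 0.0278) fell. Cdh1 and F11r were not called without Ahr-/- F1, F2, M1, M2 or M3 or Ahrr-/- F3, M1 or M3 (0.0582 to 0.0932 and 0.0525 to 0.0914), nor Fn1 without Ahr-/- F1, F2, M1 or M3 or Ahrr-/- F3 or M3 (0.0517 to 0.0750). Without the 4 epithelial-rich libraries none of the 5 was called (Cdh1 -0.42, 0.302; F11r -0.25, 0.396; Fn1 -0.62, 0.120; Icam2 0.43, 0.111; Emilin1 0.49, 0.104). Cdh1 (0.0829), F11r (0.0929) and Fn1 (0.0577) were lost with no covariate, Cdh1 (0.0563) and F11r (0.0606) with no minimum mean, and Cdh1 with all 18 samples in 1 fit (0.0577).

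Of 16 tested associated membrane proteins 3 rose and 2 fell (median 0.16). Cd47 (0.78, SE 0.13, adjusted p = 0.00150), Tspan32 (0.85, 0.00526) and Cd37 (0.67, 0.0344) rose, and Tspan3 (-0.93, 0.0145; 0.152 without the 4 epithelial-rich libraries) and Bsg (-0.61, 0.0333) fell. Cd37 was not called without Ahr-/- F1, F2, M1 or M3 or Ahrr-/- F3 or M3 (0.0654 to 0.0875), nor Bsg without those or Ahr-/- M2 (0.0520 to 0.0847) or without the 4 epithelial-rich libraries (-0.34, 0.169). With no minimum mean Cd37 (0.0538) and Bsg (0.0512) were not called, nor Cd37 with no covariate (0.0829). Of 15 tested other adhesion receptors 3 rose and 3 fell (median -0.14). Cd34 (2.33, SE 0.16, 6.37e-07), the sort marker Siglecf (0.72, 0.0200; 0.0558 without Ahr-/- M3) and Cd33 (0.65, 0.0143; 0.0874 without the 4 epithelial-rich libraries) rose. Ceacam1 (-1.21, 0.0209; 0.0572 without Ahr-/- M3), Mcam (-0.66, 0.00541) and Cd177 (-0.79, 0.0460) fell, the last with a call that was lost without any of Ahr-/- F1, F2, M1, M2 or M3 or Ahrr-/- F2, F3, M1 or M3 (0.0516 to 0.105). Ceacam1 (-0.64, 0.103) and Cd177 (-0.61, 0.227) were not called without the 4 epithelial-rich libraries, nor with no covariate (0.0552 and 0.0613), nor Cd177 with no minimum mean (0.0763) or quantile normalization (0.0533).

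Epithelial markers were lower and eosinophil markers higher in Ahr-/- than in Ahrr-/- samples. The 5 tested eosinophil genes had a median difference of 0.75, against 0.48 for the 10 integrin genes. The 10 epithelial genes had a median difference of -1.10, and 5 fell, among them Lgals4 (-1.18, adjusted p = 0.0252), Krt19 (-1.12, 0.0189) and Epcam (-1.12, 0.0191), with Krt8 and Krt18 named after their values were seen. Lgals4 was not called without Ahr-/- F2, M1, M2 or M3 or Ahrr-/- F3, M1 or M3 (0.0504 to 0.0663), Krt19 without Ahr-/- M1 or M3 (0.0510 to 0.0525), and Epcam without Ahr-/- M3 (0.0528). Without the 4 epithelial-rich libraries, 3 of them Ahrr-/-, Lgals4 (-0.41, 0.269), Krt19 (-0.52, 0.207) and Epcam (-0.55, 0.156) were not called, nor with no covariate (0.0587, 0.0526 and 0.0705). Of 5 tested eosinophil genes 4 rose: Prg2 (2.07, 1.81e-05), Il5ra (0.75, 0.0180), Siglecf, and Alox15 (0.79, 0.0377; 0.0625 to 0.0913 without Ahr-/- F1, F2, M1, M2 or M3 or Ahrr-/- F3 or M3). Without the 4 epithelial-rich libraries Il5ra (0.49, 0.111) and Alox15 (0.47, 0.101) were not called, nor Alox15 with no covariate (0.0607) or no minimum mean (0.0840). The part of either cell type in the integrin differences was not tested, beyond the values without the epithelial-rich libraries.

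Of 6 tested neutrophil genes Retnlg rose (1.29, adjusted p = 0.00503), while S100a8 (-1.73, 0.0103) and S100a9 (-1.69, 0.00305) fell. Of 4 tested platelet genes Ppbp fell (-4.11, 1.56e-10) and Gp1ba rose (0.52, 0.0457; 0.0543 to 0.0880 without Ahr-/- M2 or Ahrr-/- F3, M1, M2 or M3). Gp1ba was also lost with no minimum mean (0.0763), log2(count + 1) (0.0503), voom (0.0575), no covariate (0.0554), a replicate block (0.0540) and without the 4 epithelial-rich libraries (0.139). Of 3 tested B and plasma cell genes Jchain fell (-3.20, 0.00708; 0.0819 without the 4 epithelial-rich libraries). C1qb, 1 of 12 tested macrophage and dendritic cell genes, fell (-1.06, 0.0466; 0.0587 to 0.106 without Ahr-/- F1, F2, M1, M2 or M3 or Ahrr-/- F2, F3, M1, M2 or M3). C1qb was also lost with no minimum mean (0.0732), quantile normalization (0.0537), log2(count + 1) (0.0605), voom (0.101), no covariate (0.112) and without the 4 epithelial-rich libraries (0.116). Of 7 tested fibroblast and endothelial genes Col1a2 (-1.09, 0.0379; 0.0558 to 0.0892 without Ahr-/- F1, F2, M1, M2 or M3 or Ahrr-/- F3, M1 or M3) and Cdh5 (-0.70, 0.0318; 0.0594 to 0.0774 without Ahr-/- F2, M1, M2 or M3 or Ahrr-/- F3, M1 or M3) fell. Neither was called with no minimum mean (0.0618 and 0.0552) or no covariate (0.0604 and 0.0584), nor Col1a2 with voom (0.0610). In the T cell, NK cell and mast cell lists limma called 0 of 1, 2 and 1 tested genes, with 1 NK cell gene at an unadjusted p under 0.05, and voom gave the same counts.

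The comparison of Ahrr-/- with WT samples asks whether integrin expression differs in samples labelled as lacking the repressor, a loss that could not be checked here. Of the 10 integrin genes, the 9 that could be tested had a lower mean in Ahrr-/- samples, by 0.53 for Itgb3 and by less for the others, but no difference passed the test. For Itga2 (-0.0016) and Itgb1 (-0.03) the sign turned with quantile normalization (0.01 each). The WT samples are those of the first comparison, so the 2 share a group.

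By limma 0 of 9 tested genes passed, with 1 (Itgb3) at an unadjusted p under 0.05, and voom called 0 with 1 at that p, where 0.0779% of 11546 tested genes passed (9 genes). The groups did not overlap for 0 of the 9, against 0.459% of tested genes in either direction. The median difference of the 9 was -0.21, and that of all tested genes 0.01. Itgae stayed under the minimum mean and was not tested; its means differed by -0.02.

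The largest difference of the 9 was that of Itgb3 (-0.53, SE 0.19, adjusted p = 0.603), followed by Itga4 (-0.27, SE 0.23, 0.739), Itgb7 (-0.23, SE 0.21, 0.746), Itgb2 (-0.22, SE 0.20, 0.747), Itgam (-0.21, SE 0.24, 0.792) and Itgax (-0.20, SE 0.20, 0.771). Itgal differed by -0.15 (SE 0.22, adjusted p = 0.835), and by 0.02 without Ahrr-/- M3. For each of these 7 genes Ahrr-/- M3 was the lowest Ahrr-/- sample and Ahrr-/- F1 or F2 the highest, and the ranges of the groups overlapped. Without the 4 libraries with the highest epithelial sums the sign turned for Itgal (0.15), Itgax (0.04) and Itgb7 (0.09). Itgb1 turned to 0.01 without Ahrr-/- M3, and Itga2 to 0.09 without WT F1, 0.01 without WT F2, 0.04 without Ahrr-/- F1, 0.11 without Ahrr-/- F2 and 0.05 without Ahrr-/- M2. None of the 7 partner pairs had an exact p under 0.05, Itgal minus Itgb2 among them (difference 0.07, exact permutation p = 0.5779).

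In the other lists limma called 0 of 12 other subunits, 0 of 34 activators and adaptors, 0 of 16 ligands, 0 of 16 associated membrane proteins and 0 of 15 other adhesion receptors. Genes at an unadjusted p under 0.05 numbered 1, 2, 4, 1 and 1 by limma and 0, 2, 4, 1 and 1 by voom, which also called 0. Vcam1, a ligand of alpha4 beta1, differed by 0.72 with no overlap between the groups (SE 0.20, adjusted p = 0.429). The alarmin genes S100a9 (2.10, 2.20e-04) and S100a8 (2.06, 6.67e-04), 2 of 6 tested neutrophil markers, rose in 6 of 6 Ahrr-/- samples.

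All 10 epithelial genes had a higher mean in Ahrr-/- than in WT samples (median difference 0.62, 0 called by limma with 3 at an unadjusted p under 0.05, and 0 by voom with 2). By limma no gene passed in the eosinophil (median -0.29, 5 tested), macrophage and dendritic cell (0.57, 11 tested), T cell (0.28, 2 tested), NK cell (-0.03, 2 tested), mast cell (0.20, 1 tested), B cell (0.44, 3 tested), platelet (0.45, 3 tested) and fibroblast lists (0.73, 7 tested). Their genes at an unadjusted p under 0.05 numbered 0, 3, 1, 0, 0, 2, 2 and 4, and by voom, which also called 0, they numbered 0, 2, 0, 0, 0, 1, 2 and 2. The part of epithelial RNA in the integrin values was not tested beyond the values without the epithelial-rich libraries.

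Male and female samples were compared over the 3 genotypes, 9 against 9. Of the 10 genes 8 had a lower mean in males, with Itgal (-0.41, SE 0.15) and Itgb3 (-0.37, SE 0.14) furthest apart, but no difference passed the test. A further fit asked whether the genotype differences depend on sex, and none did by its test.

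By limma 0 of 10 genes passed between the sexes, with 2 at an unadjusted p under 0.05 (Itgal, adjusted p = 0.139; Itgb3, adjusted p = 0.151), and voom called 0 with 2 at that p; 3.06% of 11468 tested genes passed. Non-overlapping groups were found for 0 of the 10 and for 0.148% of tested genes. Itgal passed (-0.40, 0.0234) without the 4 epithelial-rich libraries. The other differences were 0.27 for Itga2, -0.24 for Itgam, -0.21 for Itgax and Itgb7, -0.14 for Itgb2, -0.07 for Itga4, -0.06 for Itgb1 and 0.0035 for Itgae. With quantile normalization the sign turned for Itgam (0.04), Itgax (0.0003), Itga4 (0.24), Itgae (-0.03), Itgb1 (0.02) and Itgb2 (0.05). It also turned for Itga4 without Ahrr-/- F1 (0.0012) or Ahrr-/- M3 (0.01), and for Itgae without WT M3, Ahr-/- F1, F2, M1 or M2 (-0.02 each), Ahrr-/- F3 or M2 (-0.04 each) or Ahrr-/- M3 (-0.01). The medians were -0.17 for the 10 genes and 0.01 for all tested genes.

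For the interaction of genotype and sex limma called 0 of the 10, with 0 at an unadjusted p under 0.05, and 0% of 11468 tested genes (440 at an unadjusted p under 0.05); voom called 0 genes, with 348 at that p. Within females the Ahr-/- minus WT difference of Itgal was 1.28 and within males 0.97. For Itgax it was 0.56 and 0.27, for Itgb1 0.60 and 0.26, for Itgb3 0.62 and 0.32, and for Itga2 0.37 and 0.64. The genes that rose thus had higher means in Ahr-/- samples of both sexes. Itgb7 differed by 0.22 in females and -0.76 in males, where Ahr-/- M1 lies, and Itgae by 0.14 and 0.77.

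In the other lists few genes differed by sex. Icam1 (-0.96, adjusted p = 0.00798) and Thbs1 (-1.33, 0.0247) were lower in males among 15 tested ligands, as was Slc3a2 (-0.70, 0.0175), the partner of amino acid transporters that binds beta1 chains, among 16 associated proteins. Thbs1 was not called without WT F2 or M3, Ahr-/- F1, F2, M1 or M3, or Ahrr-/- F1, F2 or M3 (0.050 to 0.0629). Of the activators and adaptors Dab2 was higher (0.93, 0.0470) and Cyth1 lower (-0.45, 0.0347), and of the other subunits Itga2b was lower (-0.50, 0.0398). Dab2 was not called without WT F2, M2 or M3, any Ahr-/- library, or Ahrr-/- F1, F2, M2 or M3 (0.0520 to 0.109). Cyth1 was not called without WT F2, M2 or M3, Ahr-/- F1, F2, M1 or M2, or Ahrr-/- F1, F2 or M3 (0.0522 to 0.0843), nor Itga2b without WT F2 or M3, Ahr-/- F1, F2, M1, M2 or M3, or Ahrr-/- F1, F2, M1, M2 or M3 (0.0530 to 0.0974). Over the 12 WT and Ahr-/- samples alone none of these genes was called (Icam1 0.0880, Slc3a2 0.0871, Thbs1 0.117, Dab2 0.120, Cyth1 0.187, Itga2b 0.269). With no minimum mean Thbs1 (0.0661), Dab2 (0.102), Cyth1 (0.0682) and Itga2b (0.0820) were not called, nor Dab2 (0.0728) and Itga2b (0.0541) with no covariate. Of 15 other adhesion receptors limma called 0, with 1 at an unadjusted p under 0.05, and voom gave the same counts.

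Markers by sex were as follows. H2-Aa (1.48, adjusted p = 0.0285) and H2-Ab1 (1.34, 0.0426) were higher in males among 12 tested macrophage and dendritic cell genes, although the gate removed cells with MHC-II. Kit (-0.94, 0.0245) was lower in males, as was Ltf (-0.84, 0.0210) among 6 neutrophil genes, while Pf4 (0.51, 0.0485) was higher among 4 platelet genes. The call for H2-Aa was lost without WT M2, any Ahr-/- library, or Ahrr-/- F1, F2, M2 or M3 (0.0511 to 0.0706), and that for H2-Ab1 without these or WT F2 or M3 (0.0562 to 0.101). Pf4 was not called without WT F2, M2 or M3, Ahr-/- F1, F2, M1, M2 or M3, or Ahrr-/- F1, F2, M2 or M3 (0.0512 to 0.114), nor Kit without WT F2 or Ahr-/- F1, M1, M2 or M3 (0.0520 to 0.0587). Over the 12 WT and Ahr-/- samples alone H2-Aa (0.0662), H2-Ab1 (0.130), Kit (0.0721) and Ltf (0.0807) were not called, and without WT F3 and Ahr-/- F3 together H2-Ab1 (0.0696) and Ltf (0.0504) were not. With no minimum mean H2-Aa (0.0619), H2-Ab1 (0.0908), Kit (0.0544) and Pf4 (0.107) were not called, nor H2-Ab1 (0.0785) and Pf4 (0.115) with no covariate. Pf4 was also lost with median centring (0.0663), log2(count + 1) (0.0636) and voom (0.0710). In the epithelial, eosinophil, fibroblast, T cell, NK cell and B cell lists limma called 0 of 10, 5, 7, 1, 2 and 3 tested genes. At an unadjusted p under 0.05 these lists held 1, 1, 0, 0, 1 and 0 genes by limma and 1, 1, 0, 1, 1 and 0 by voom, which called 1, in the eosinophil list. All 10 epithelial genes had a higher mean in males (median difference 0.46), and their part in the integrin values was not tested.

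For each integrin gene called in a comparison of genotypes, the 3 genes whose levels followed it most closely over the 18 samples are given by Pearson's r, as a description, since the samples share genotypes and libraries. Itgal was followed by Nrros (0.98), which holds TGF-beta1 on myeloid cells, by Cyfip2 (0.96), part of the WAVE complex that drives actin branching, and by Gm14548 (0.95). Nrros rose in Ahr-/- relative to WT samples by 1.08 (SE 0.13, adjusted p = 3.50e-05, 6 of 6 above the range). Itgax was followed by Nckap1l (0.97), also of the WAVE complex, by the leukocyte receptor gene Lilra6 (0.97) and by the glycogen phosphorylase Pygl (0.96). For Itgb3 the genes were the myosin Myo1g (0.96), Cds2 (0.95) and the receptor Pirb (0.95). For Itgb1 they were Retnlg (0.92), which is the most abundant gene of the neutrophil list, the proton-sensing receptor Gpr65 (0.89) and Mboat1 (0.89). Itga2 had Agmo (0.90), Fahd2a (0.86) and Adi1 (0.85), and the low-count Itgae had Amer1 (0.83), Arhgap19 (0.78) and Bsn (0.77).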

How the data were processed

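The deposited values are bulk RNA-seq expression on a log2 variance-stabilized scale, which the authors made with DESeq2 from counts aligned with STAR 2.5.2 and quantified with RSEM 1.3.0 (R 4.0.3, per the submitters' notes). The paper names nf-core/rnaseq for alignment and gene counts and does not name STAR or RSEM, so which pipeline gave these values is not certain. Every value was turned back into a count; 100% were whole within 0.0001. Genes with a mean at least 1 above the lowest value (5.0) were fitted in pairs of genotypes with limma 3.58.1 (R 4.3.3; trended prior, sex as a covariate); sex and its interaction with genotype were fitted over all 18 samples, and p-values were adjusted by Benjamini-Hochberg over all genes tested, with a threshold of 0.05. A gene low in 1 group could meet the minimum mean through the other group, as Itgae and Emilin1 did. For partner pairs, group means were tested by exact two-sided permutation. The procedure was tested on simulated data. Matplotlib 3.10.9, scipy 1.17.1, pandas 2.3.3, numpy 2.4.6 and Python 3.11.15 were used for the rest. Exon lengths and positions are from GENCODE (GRCm38).

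The integrin genes and the lists were chosen with earlier results of these data known. The lists are other integrin subunits, integrin activators and adaptors, counter-receptors and matrix ligands, associated membrane proteins, other adhesion receptors, and markers of eosinophils, macrophages and dendritic cells, T cells, NK cells and innate lymphocytes, mast cells and basophils, neutrophils, B and plasma cells, platelets and megakaryocytes, epithelium, and fibroblasts and endothelium. Itga2b is in the lists of subunits and platelets, and Siglecf in those of eosinophils and adhesion receptors. Named genes are the 10 integrins, Ahr, Ahrr, Cyp1b1 and Tiparp, in each list up to 3 called genes with the largest differences in each direction, the partners and ligands, the 3 genes most like each called integrin gene, and the most abundant marker of each list; the results of a few listed genes are not reported here.

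Alternatives were no minimum mean, a minimum of 3 above the lowest value, median centring, quantile normalization, log2(count + 1), voom on the recovered counts, no covariate, a replicate block, all 18 samples in 1 fit (or the 12 WT and Ahr-/- samples for sex), and leaving out each sample. Chosen after seeing the data were leaving out the 2 libraries with the most genes detected or the 4 with the highest epithelial sum, and the alternatives for partner pairs and for listed genes.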

Additional observations from a re-analysis of the deposited data

Results flagged for a closer look

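In 282 groups of 6 samples (genes, list sums and partner differences), 12 held 1 sample that lay far from the other 5, by Dixon's ratio of its gap to the range. Chance gives about 1 in 20 groups, and the number found was no higher than that. The samples are therefore listed as a description. On the log2 scale, Itgb2 in WT F1 was 11.46, with the others at 11.79 to 11.97. Actn4 in Ahr-/- F3 was 10.09 (others 9.57 to 9.75), Tspan32 in the same sample 8.77 (8.99 to 9.11), S100a9 10.15 (7.71 to 8.23) and S100a8 9.61 (6.81 to 7.62). Cyth1 in WT F2 was 8.46 (7.55 to 7.78), and C1qb in Ahrr-/- F1 was 6.24 (8.0 to 8.55).

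Of the sums of normalized counts, the mast cell and basophil list in Ahrr-/- M2 was 71 (others 171 to 215), and the fibroblast and endothelial list in WT F3 was 361 (109 to 163). Of the partner differences, Itgal minus Itgb2 in Ahr-/- M3 was 0.03 (0.44 to 0.64), Itgae minus Itgb7 in Ahrr-/- M3 was -1.90 (-3.30 to -2.92), and Itga2 minus Itgb1 in WT F1 was -0.89 (-1.48 to -1.36).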

How the results depend on the processing

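Itgal in both comparisons with Ahr-/- samples and Itgb3 in Ahr-/- against Ahrr-/- samples kept their direction and their call under all alternatives. Over all integrin differences and alternatives, Ahr-/- minus WT kept direction and call in 200, lost the call in 26, gained it in 2 and reversed in 1; Ahrr-/- minus WT kept in 194 and reversed in 13; Ahr-/- minus Ahrr-/- kept in 204, lost in 12, gained in 8 and reversed in 5; male minus female kept in 257, gained in 1 and reversed in 21. Where a fit left out samples or tested fewer genes, that changes the number called; otherwise the cause was not tested.

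Genes called in Ahr-/- against WT (1003) numbered 553 with all 18 samples in 1 fit, 586 without the 2 libraries with the most genes detected, 918 with a replicate block, and 623 to 1124 leaving out 1 sample. Integrin genes called there (5) numbered 3 with no minimum mean, 2 with all 18 samples, 1 without those 2 libraries, 4 with the block, and 3 to 5 leaving out 1 sample; Itgam was -0.03 with quantile normalization. Partner pairs past 0.05 (2) numbered 1 to 2 leaving out 1 sample.

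Genes called in Ahrr-/- against WT (9) numbered 4 with no minimum mean, median centring, log2(count + 1), voom or the block, 5 with the stricter minimum or quantile normalization, 14 with all 18 samples, and 4 to 25 leaving out 1 sample. Differences reversed to 0.15 (Itgal), 0.04 (Itgax) and 0.09 (Itgb7) without the 4 epithelial-rich libraries, to 0.01 (Itga2 and Itgb1) with quantile normalization and to 0.0037 (Itga2) with voom. Leaving out 1 sample gave -0.25 to 0.02 for Itgal, -0.12 to 0.11 for Itga2 and -0.09 to 0.01 for Itgb1.

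Genes called in Ahr-/- against Ahrr-/- (1708) numbered 828 with the stricter minimum, 994 with no covariate, 626 without the 4 epithelial-rich libraries, 1946 with the block, and 818 to 2574 leaving out 1 sample; integrin genes (5) numbered 6 with the block and 3 to 6 leaving out 1 sample. Itgb7 was 0.02 with median centring, 0.01 with quantile normalization and -0.19 to 0.16 leaving out 1 sample. Partner pairs past 0.05 (1) numbered 2 with log2(count + 1) and 1 to 3 leaving out 1 sample.

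Genes called between the sexes (351) numbered 163 with no minimum mean, 211 with no covariate, 62 in the 12 WT and Ahr-/- samples, 1049 without the 4 epithelial-rich libraries and 142 to 733 leaving out 1 sample; integrin genes (0 by limma, 2 at an unadjusted p under 0.05, 0 by voom) numbered 1 without the epithelial-rich libraries. With quantile normalization differences reversed to 0.04 (Itgam), 0.0003 (Itgax), 0.24 (Itga4), -0.03 (Itgae), 0.02 (Itgb1) and 0.05 (Itgb2), and in the 12 samples to 0.09 (Itga4) and -0.09 (Itgae). Itgae was -0.03 with median centring, -0.07 with log2(count + 1), -0.0030 without the epithelial-rich libraries and -0.04 to 0.08 leaving out 1 sample, and Itga4 -0.14 to 0.01. The replicate numbers do not pair samples: correlations between equally numbered samples ran from -0.59 to 0.47, so the block is an alternative only. Depth limits Itgae most, with 5 to 47 normalized counts.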
